A study of Mus musculus with 2 samples.

Results

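Amacrine cells, the inhibitory and modulatory interneurons of the inner retina, are told apart by the transmitters they make and carry. The 9 genes described here are Gad1, Gad2, Slc32a1, Slc6a9, Slc6a5, Chat, Slc5a7, Th and Slc17a8, chosen by symbol as genes of amacrine transmitter synthesis and transport. Each symbol matched 1 of the 32285 features of the expression matrix, and all 9 had UMIs (counted molecules) in the retained nuclei. The data are from mouse retina profiled with SeekSpace, which pairs the RNA of each nucleus with a position on a capture chip. Per the labels, a fresh-frozen retina was cut at 10 µm, and nuclei of 1 section from 1 eye gave 2 libraries called T1, one of transcripts and one of position barcodes. The series text concerns mice heterozygous for a Prph2 allele, Prph2C213Y/+, on C57BL/6J, with wild types matched for age and sex, and places the spatial work at 6 months. No experimental treatment was given. The text assigns T1 to neither genotype and gives no replicate, so no group, genotype or replicate comparison was possible. The matrix held 17285 barcodes, all 17285 with a position, and 55843593 UMIs. The 16867 nuclei kept had a median of 1811 UMIs.

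Gad1 and Gad2 encode the enzymes that make GABA from glutamate. Slc32a1 encodes the vesicular transporter that loads GABA and glycine alike into synaptic vesicles. Slc6a9 and Slc6a5 encode the plasma membrane glycine transporters GlyT1 and GlyT2; in the retina GlyT1 is the usual mark of glycinergic amacrine cells. Chat makes acetylcholine and Slc5a7 takes up the choline for it; starburst amacrine cells, which shape direction selectivity and release both acetylcholine and GABA, are the cholinergic cells of the retina and lie on both sides of the inner plexiform layer. Th makes the precursor of dopamine, and Slc17a8 encodes the vesicular glutamate transporter VGLUT3, found in a glycinergic amacrine type that also releases glutamate.

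Chat and Slc5a7 were detected largely in the same nuclei, so the 250 bases before the start of each are shown. Both come from RefSeq (build GRCm38.p6), both genes lie on the minus strand, and the sequences are written 5′ to 3′ on the strand of the gene. The start used for Slc5a7 lies a few bases inside the outer end of the gene. Capitals mark matches to 6 motifs searched on both strands: TATAAA (the TATA box), CCAAT (the CAAT box), GGGCGG (the GC box), TAATTA (a homeodomain core) and the E-box forms CACGTG and, for neuronal factors, CAGATG.
Chat, chr14:32465910-32466159: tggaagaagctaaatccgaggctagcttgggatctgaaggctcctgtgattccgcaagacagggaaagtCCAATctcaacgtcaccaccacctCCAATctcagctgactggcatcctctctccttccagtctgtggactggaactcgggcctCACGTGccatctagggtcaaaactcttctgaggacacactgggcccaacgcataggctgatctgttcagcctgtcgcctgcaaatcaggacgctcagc
Slc5a7, chr17:54299035-54299284: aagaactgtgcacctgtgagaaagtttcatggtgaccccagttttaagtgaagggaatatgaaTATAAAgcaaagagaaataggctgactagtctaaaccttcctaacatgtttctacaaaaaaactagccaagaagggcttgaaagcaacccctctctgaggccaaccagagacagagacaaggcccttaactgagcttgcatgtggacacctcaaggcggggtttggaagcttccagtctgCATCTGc
The Chat window held CCAAT 181 and 157 bases before the start and CACGTG 98 bases before it. The Slc5a7 window held TATAAA 187 bases and CAGATG, read on the other strand, 7 bases before the start. The windows shared no motif of the 6. Of 32851 mouse promoter windows of the same length, 33.8% held CCAAT, 12.4% TATAAA, 6.02% CACGTG, 14.4% CAGATG, 32.7% GGGCGG and 4.84% TAATTA. A match describes the letters and is not evidence of a bound site.

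Nuclei were sorted into 17 classes by clustering without the 9 genes or the related pathway genes, and the classes were named from marker lists alone. Names end in "-like" because the authors' annotation was not used here. Amacrine-like nuclei numbered 2312 (13.7% of those kept) and had a median of 4352.5 UMIs. Their marker Tfap2a, a transcription factor of amacrine cells, stood at 215 CPM (UMIs of the gene per 1000000 UMIs of the class) in them. Horizontal-like nuclei had 70.7 CPM of Tfap2a, rod-like nuclei 2.90 CPM and ganglion cell-like nuclei 5.30 CPM. Of the other markers of the list, Tfap2b, C1ql1, Pax6 and Meis2 separated the class less well. Tfap2b stood at 429.8 CPM in amacrine-like and at 795 CPM in horizontal-like nuclei, and C1ql1 at 132 and 351 CPM. Pax6 was 638 CPM in amacrine-like and 641 CPM in Müller glia-like nuclei, and Meis2 685 CPM in amacrine-like and 560 CPM in rod-like nuclei. Tfap2c, C1ql2 and Lhx9 stood at 23.0, 79.7 and 30.8 CPM in amacrine-like nuclei, against 1.21, 4.84 and 19.4 CPM in Müller glia-like nuclei. Gene coordinates are those of RefSeq on GRCm38.p6, and all 9 members are protein coding. All levels below are CPM pooled over the nuclei of a class, with exact Poisson 95% intervals. Shares have exact Clopper-Pearson 95% intervals. Both cover counting error only, since there is 1 library and its nuclei cannot stand in for replicates; no p-value was computed.

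All 9 genes had their highest level among the classes in amacrine-like nuclei, and 4 of them met a strict rule for class-high. The rule compared 95% bounds: the lower one in the top class had to reach 2 times the upper one in each other class of 50 or more nuclei. Over all genes, 29 of 18427 (0.157%) were class-high in amacrine-like nuclei, and 22 of the 16773 genes not used in clustering (0.131%). The 4 were Gad1, Gad2, Slc6a5 and Chat. With each nucleus thinned to 500 UMIs, Gad1 alone met the rule, and the class highest in Slc32a1 was horizontal-like (222 CPM, 81.6 to 484) rather than amacrine-like (196.4 CPM, 172 to 224). Thinning widens the bounds of small classes, so genes at the levels of Gad2, Slc6a5 and Chat could not meet the rule at that depth. Their thinned levels were 131.5, 95.6 and 74.5 CPM in amacrine-like nuclei, against 20.2, 9.30 and 3.57 CPM in the next class.

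Gad1 (ENSMUSG00000070880, chromosome 2, 70561303 to 70602014) was the clearest of the synthesis genes. It stood at 610.5 CPM (596 to 625) in amacrine-like nuclei, with 29.7 CPM (21.9 to 39.2) in Müller glia-like nuclei as the next class, and amacrine-like nuclei held 86.3% of its UMIs. At least 1 Gad1 UMI was found in 56.7% of amacrine-like nuclei, against 0.548% of rod-like nuclei (median 1057 UMIs) and 10.6% of ganglion cell-like nuclei (median 8151 UMIs). Thinned to 500 UMIs per nucleus, which kept 2281 of the 2312 amacrine-like nuclei, the shares were 21.2, 0.304 and 1.26%. Gad2 (ENSMUSG00000026787, chromosome 2, 22621015 to 22693877) stood at 120.7 CPM (114 to 127), and ganglion cell-like nuclei came next at 11.8 CPM (8.41 to 16.0). Horizontal-like nuclei, 54 in number, had 0 UMIs of either gene, for which the upper Poisson bound is 9.31 CPM.

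Slc32a1 (ENSMUSG00000037771, chromosome 2, 158607260 to 158615747) was shared with the horizontal cells. Its level was 200.2 CPM (192 to 209) in amacrine-like and 114 CPM (82.9 to 152) in horizontal-like nuclei, where 27 of 54 nuclei (50%) had at least 1 UMI. In ganglion cell-like nuclei, at the greater median depth of 8151 against 6926 UMIs, the share was 4.79%. The horizontal-like level was 115, 90.9, 94.3 and 149 CPM in the 4 tissue pieces described below, from 4 to 16 UMIs each. Horizontal-like nuclei thus held transcripts of the vesicular transporter without a single UMI of either GABA synthesis gene. Gm14204, a transcript that overlaps Slc32a1, was counted at 118 CPM in amacrine-like and 80.8 CPM in horizontal-like nuclei, so reads of this pair could have been split.

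The glycine transporters differed in how far they reached beyond amacrine-like nuclei. Slc6a9 (ENSMUSG00000028542, chromosome 4, 117835258 to 117869305) stood at 562 CPM (548 to 576) in amacrine-like nuclei and at 459 CPM (437 to 481) in nuclei like the retinal pigment epithelium (RPE), which held 15.8% of its UMIs. Its RPE-like level was 500.3, 439.6 and 473 CPM in pieces 1 to 3 and 417 CPM in piece 4. Thinned to 500 UMIs, 21.3% of RPE-like and 20.8% of amacrine-like nuclei had a Slc6a9 UMI, against 1.52% of ganglion cell-like nuclei. Rod-like and cone-like nuclei had 112 CPM (105 to 119.9) and 77.4 CPM (65.3 to 91.1). There the overlapping gene Ccdc24 was counted at 92.0 and 69.3 CPM, against 6.26 CPM in amacrine-like and 3.57 CPM in RPE-like nuclei, so the photoreceptor values of Slc6a9 are uncertain. Slc6a5 (ENSMUSG00000039728, chromosome 7, 49906984 to 49963864) had no such spread. It stood at 120.4 CPM (114 to 127) in amacrine-like nuclei, with adipocyte-like nuclei next at 7.84 CPM (2.14 to 20.1), while ganglion cell-like, RPE-like and rod-like nuclei had 0.589, 0.274 and 0.725 CPM, and 89.2% of its UMIs were in amacrine-like nuclei.

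Chat (ENSMUSG00000021919, chromosome 14, 32408203 to 32465909) and Slc5a7 (ENSMUSG00000023945, chromosome 17, 54273590 to 54299038) had the largest shares of their UMIs in amacrine-like nuclei, 94.8 and 93.5%. Chat stood at 93.6 CPM (87.9 to 99.4), with RPE-like nuclei next at 3.29 CPM. All 12 Chat UMIs of the RPE-like class came from 1 nucleus, which also held 12 Gad1, 4 Slc5a7, 5 Slc18a3 and 4 Tfap2b UMIs. Slc5a7 stood at 30.03 CPM (26.9 to 33.5) against 1.77 CPM (0.648 to 3.85) in ganglion cell-like nuclei. It did not meet the rule because the surface epithelium-like class, with 62 nuclei and 0 Slc5a7 UMIs, had an upper bound of 13.7 CPM. Slc18a3, the vesicular acetylcholine transporter gene nested in Chat, was counted apart, at 20.8 CPM for amacrine-like and 1.47 CPM for ganglion cell-like nuclei.

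Slc17a8 and Th did not stand apart from the next class. Slc17a8 (ENSMUSG00000019935, chromosome 10, 89574020 to 89621249) stood at 55.6 CPM (51.3 to 60.2) in amacrine-like and 41.1 CPM (32.0 to 52.2) in Müller glia-like nuclei, or 29.4 CPM in Müller glia-like nuclei of the retinal band alone. The kind of signal differed: in amacrine-like nuclei 74 nuclei (3.20%) held 613 UMIs, a median of 8 each, while in Müller glia-like nuclei 58 nuclei (10.1%) held 68. Th (ENSMUSG00000000214, chromosome 7, 142892779 to 142899995) had 37 UMIs in amacrine-like nuclei, 3.36 CPM (2.36 to 4.63), and 11 UMIs in ganglion cell-like nuclei, 3.24 CPM (1.62 to 5.80).

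The members also appeared in nuclei that had no class. The unnamed clusters held 954 nuclei (5.66%) in 6 clusters. The largest, of 351 nuclei with a median of 8170 UMIs, was led by bipolar and Müller glia genes such as Pcp2, Glul and Aqp4. In it Gad1 stood at 163 CPM, Slc6a9 at 168 CPM, Slc32a1 at 48.9 CPM and Slc17a8 at 24.2 CPM, and whether these barcodes hold more than 1 nucleus was not tested. A cluster of 83 nuclei led by Gfap and Pax2 had Slc6a9 at 206 CPM (162 to 257), with 0 UMIs of Gad2, Slc6a5 and Chat.

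**Figure D1:**
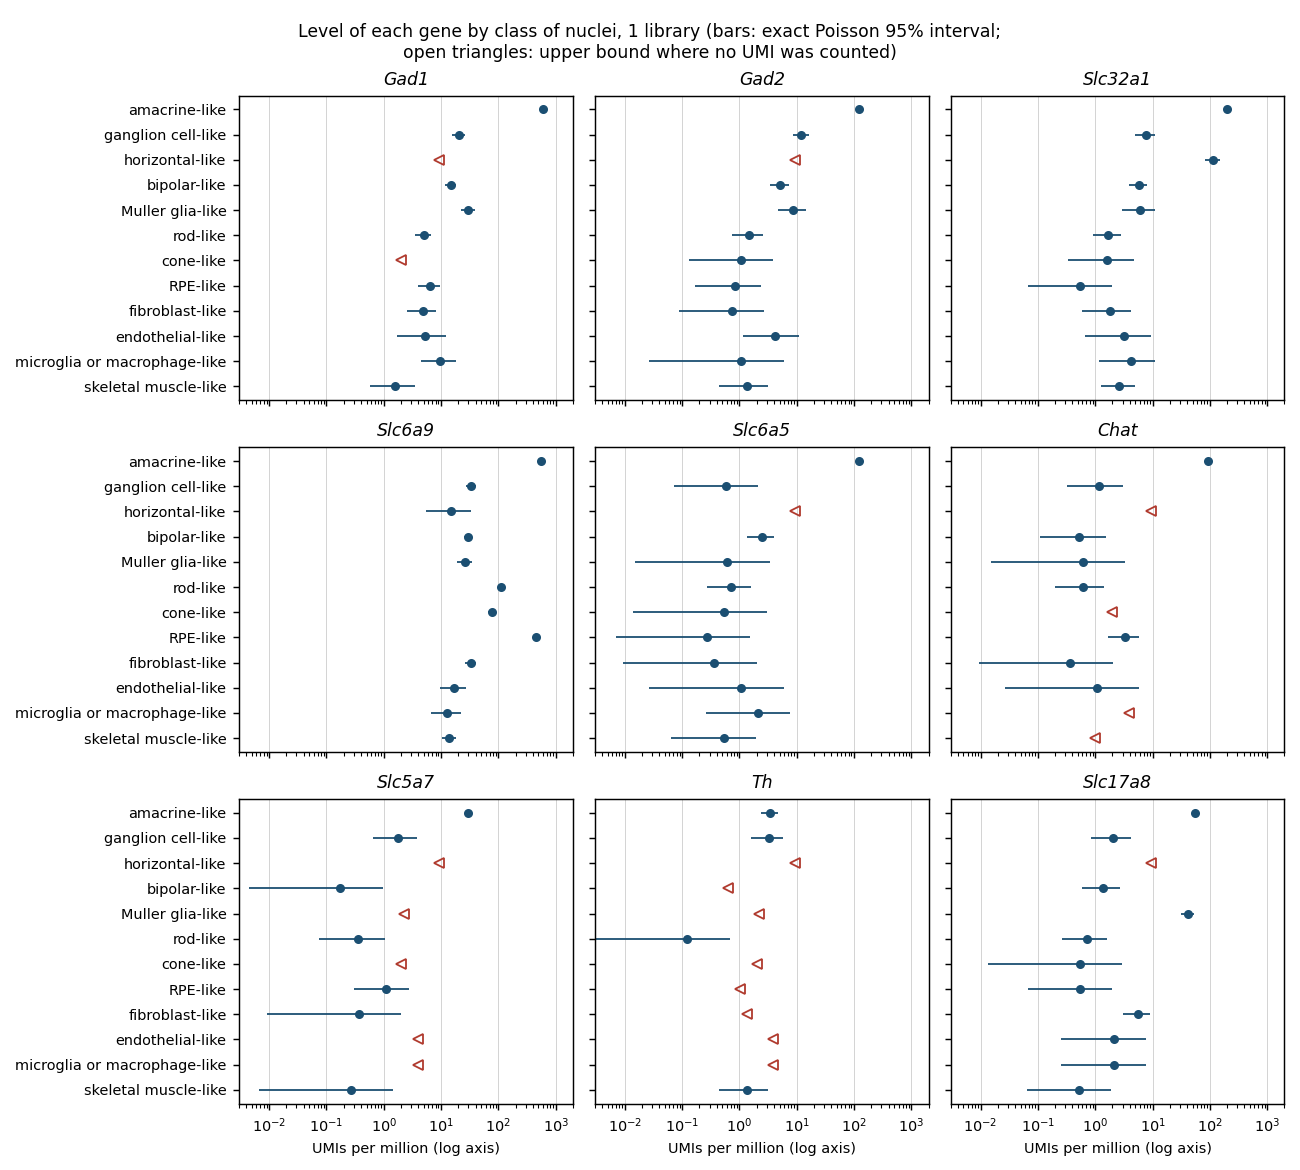
Level of each of the 9 genes (CPM, log axis) in 12 classes of nuclei; points are pooled levels, bars exact Poisson 95% intervals and open triangles upper bounds where no UMI was counted. Amacrine-like nuclei have the highest counted level in every panel, Slc6a9 is also high in RPE-like nuclei (459 CPM), Slc32a1 in horizontal-like nuclei (114 CPM) and Slc17a8 in Müller glia-like nuclei (41.1 CPM).

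Per nucleus, GABA genes (Gad1 or Gad2) and glycine transporter genes (Slc6a9 or Slc6a5) divided the amacrine-like class into 4 groups. Nuclei with GABA genes only made up 32.7% (30.7 to 34.6%, 755 nuclei), those with glycine genes only 29.2% (27.4 to 31.1%, 676 nuclei), those with both 29.2% (27.3 to 31.1%, 674 nuclei) and those with neither 8.95% (7.82 to 10.2%, 207 nuclei). Depth moved with these groups: the median was 5422.5 UMIs in nuclei with both sets, 4717 with GABA genes only, 3825 with glycine genes only and 1650 with neither. Thinned to 1000 UMIs each, which left out 136 shallower nuclei and kept 2176, the shares were 32.2% GABA only, 29.6% glycine only, 6.80% both and 31.4% neither. The shares with 1 set were therefore nearly the same at both depths, while the share with both sets was not. At a minimum of 2 UMIs per set, 13.3% had both. Doublets and free RNA can also place both sets in 1 barcode, and their part was not tested.

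Genes within a set went together and genes of different sets mostly did not. After thinning, 10.9% of Gad1 nuclei had a Slc6a9 UMI, against 42.9% of nuclei without Gad1. By contrast, 52.0% of Gad2 nuclei had Gad1, against 32.8% of nuclei without Gad2, and 53.3% of Slc6a5 nuclei had Slc6a9, against 29.5% of nuclei without Slc6a5. Slc6a5 was less separate from Gad1 than Slc6a9 was: 25.7% of Slc6a5 nuclei had Gad1, against 35.5% of nuclei without Slc6a5, and 11.8% of Slc6a9 nuclei had Gad1, against 45.2% of those without. Without thinning, of the 332 nuclei with at least 2 Slc6a5 UMIs, 48.8% also had Gad1 and 74.7% had Slc6a9. Over all 9 genes, 111 different sets of detected genes occurred. The most frequent were Slc6a9 alone in 232 nuclei, Gad1 with Gad2 and Slc32a1 in 195, none of the 9 in 153, and Slc32a1 with Slc6a9 in 139.

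Slc32a1 was found on both sides of the GABA and glycine divide. At full depth 56.0% (52.4 to 59.6%) of GABA-only nuclei and 46.3% (42.5 to 50.1%) of glycine-only nuclei had at least 1 UMI, with 61.1% of nuclei with both sets and 22.2% of those with neither. After thinning, the shares were 20.3% in GABA-only, 15.04% in glycine-only, 12.8% in nuclei with both and 16.3% in nuclei with neither. Their intervals were 17.4 to 23.5%, 12.4 to 18.0%, 7.91 to 19.3% and 13.6 to 19.2%, and the differences were not tested. In ganglion cell-like nuclei, which should lack the gene, 0.505% had a UMI at 500 UMIs per nucleus, against 9.29% of amacrine-like nuclei at that depth.

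The cholinergic pair was the most tightly joined. Of the 210 amacrine-like nuclei with Chat, 136 (64.8%, 57.9 to 71.2%) also had Slc5a7, against 0.761% of nuclei without Chat. Of the 152 nuclei with Slc5a7, 89.5% had Chat. After thinning, 34.7% of Chat nuclei and 0.916% of the rest had Slc5a7. All 136 nuclei with both genes had Gad1, and 92 of them (67.6%) had Slc18a3.

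Chat nuclei carried one of the GABA synthesis genes and little of the other. Gad1 was found in 93.3% (89.1 to 96.3%) of Chat nuclei and Gad2 in 12.9% (8.65 to 18.1%); among amacrine-like nuclei without Chat the shares were 53.0 and 32.2%. Thinned, Gad1 was in 59.4% of Chat nuclei against 33.3% of the rest, and Gad2 in 1.98% against 9.54%. A GABA gene of either kind was found in 93.8% of Chat nuclei (89.6 to 96.7%), or 60.4% after thinning. Slc6a9 was found in 27.1% of Chat nuclei, against 53.7% of the rest.

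Amacrine-like nuclei were clustered again, once more without the 9 genes or the pathway lists, into 27 sub-clusters, of which 25 held at least 20 nuclei. Across the 25, Gad1 ran from 22.5 to 1564 CPM and Slc6a9 from 32.0 to 1902 CPM, broadly in opposite order. Over the 25 sub-clusters the Pearson r of log2 levels was -0.77 for Gad1 with Slc6a9, 0.59 for Gad1 with Gad2 and 0.65 for Chat with Slc5a7. These points share 1 library, and their totals differ with the number of nuclei, so the values describe these sub-clusters only. Slc32a1 varied least of the members with UMIs in every one of the 25, from 108 to 321 CPM, a 2.98-fold range. The sub-clusters highest in Gad1, numbers 16, 22 and 6, stood at 1564, 1527 and 1442 CPM and had Slc6a9 at 34.3, 107 and 109.96 CPM.

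**Figure D2:**
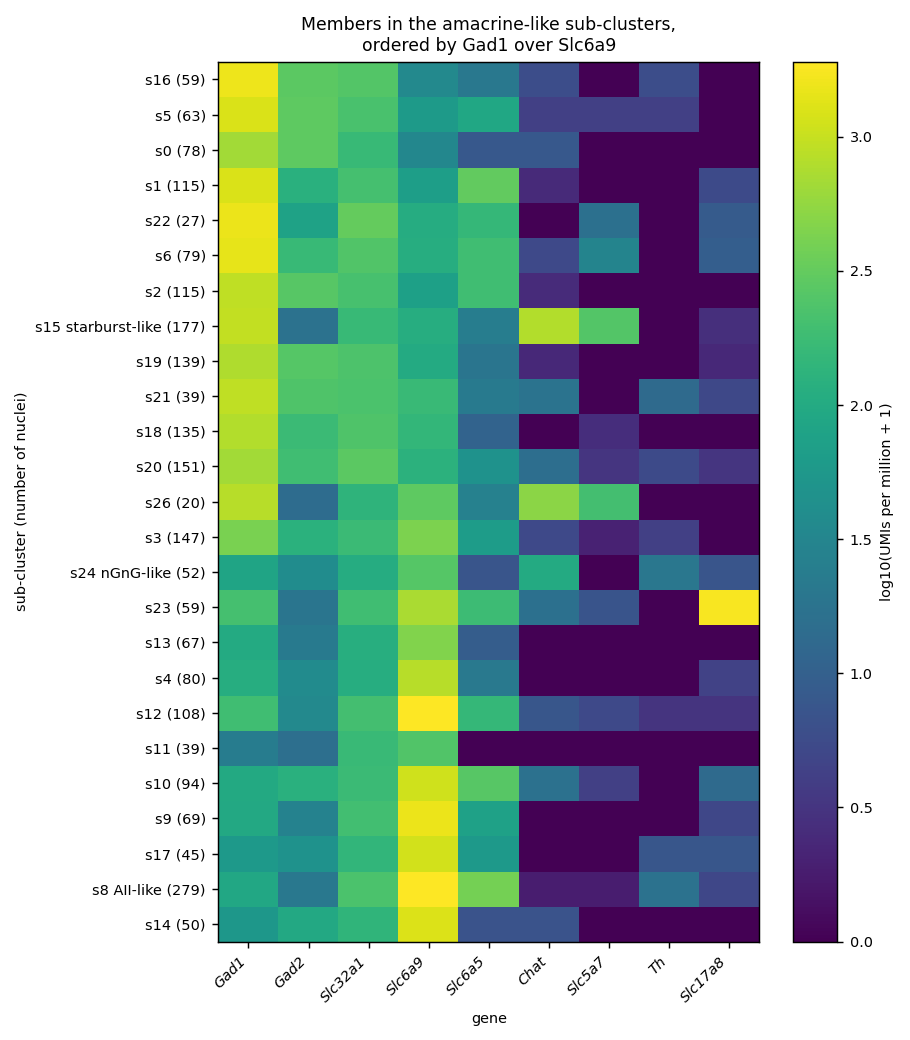
Levels of the 9 genes, as log10 of CPM plus 1, in the 25 amacrine-like sub-clusters of at least 20 nuclei, ordered by Gad1 over Slc6a9. Gad1 and Slc6a9 change over along the order, Slc32a1 stays between 108 and 321 CPM, and Chat with Slc5a7, and Slc17a8, are each bright in 1 or 2 rows.

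Several sub-clusters combined the synthesis and transport genes in their own ways. The AII-like sub-cluster (279 nuclei, named from Gjd2, Prox1, Dab1 and Nfia; leading genes Gm45459, Pcsk6, Tll1, Drd2 and Kcnh1) had the highest Slc6a9, at 1902 CPM (1826 to 1980), and the highest Slc6a5, at 387 CPM (353 to 423), beside Gad1 at 91.5 CPM. AII cells relay rod signals to the cone pathways. The AII list also scored best in sub-cluster 10 (94 nuclei), which did not take the name and had Slc6a9 at 1103 CPM and Slc6a5 at 267 CPM. Sub-cluster 12 (108 nuclei; Esr1, Grik3, Adamts2, Igf1, Prom1) had nearly as much Slc6a9, 1868 CPM, with Slc6a5 at 152 CPM, and sub-cluster 14 (50 nuclei; Robo3, Cdh22, Osbpl3, Mctp2, Il1rapl2) had 1287 CPM of Slc6a9 with only 5.85 CPM of Slc6a5. GlyT2 transcripts were thus not spread evenly over the sub-clusters rich in GlyT1. In sub-cluster 14 the starburst list scored best, but it did not take that name.

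Slc6a5 was also high in sub-clusters poor in Slc6a9 and rich in Gad1. Sub-cluster 1 (115 nuclei; Tshr, Insyn2b, Col5a1, Arhgef26, Olfm3) had Gad1 at 1227 CPM, Slc6a5 at 309.6 CPM (269 to 355) and Slc6a9 at 67.0 CPM. Sub-clusters 2 (Glra1, A330049N07Rik, Tacr3, Erbb4, Epha3) and 6 (Pdgfra, Sema3a, Ndst4, Cdh1, Gm2694) had Gad1 at 923 and 1442 CPM with Slc6a5 at 188 and 186 CPM. Among the marker lists, bipolar scored best in sub-cluster 2, fibroblast in sub-cluster 6, and amacrine in sub-clusters 1, 18 and 19. Sub-clusters 18 (Lypd6b, Mctp1, Slc35f3, 1700047F07Rik, Slit2) and 19 (Maf, Slc4a4, Chrm1, Mmp9, Dytn), at 807 and 766 CPM of Gad1, had Slc6a5 at only 10.2 and 17.9 CPM. In the thinned nuclei of sub-clusters 1, 2 and 6, both transmitter sets were found in 15.7, 11.01 and 19.3%, against 3.97 and 8.09% in sub-clusters 18 and 19. At full depth the shares were 56.5, 54.8 and 32.9% against 39.3 and 33.8%, so the order of sub-cluster 6, whose median of 1915 UMIs is the lowest of the 5, depended on depth. The sub-clusters were not formed with these genes. Whether doublets, of GABA and glycine nuclei or with nuclei of other classes, add to sub-clusters 1, 2 and 6 was not tested.

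In 3 of the 25 sub-clusters most nuclei had neither set after thinning. Sub-cluster 11 (39 nuclei; Kcnh8, Hmcn1, Gpc5, Slc4a5, Nkain3), sub-cluster 13 (67 nuclei; Scube1, Vwa5b1, Col15a1, Cntn6, Gpr149) and the nGnG-like one (52 nuclei; Cntnap5c, Fbln2, Rtl4, Trpc7, Col27a1) had Gad1 at 22.5, 100.2 and 82.4 CPM and Slc6a9 at 247, 451 and 260.0 CPM. The name nGnG is used for amacrine cells described as neither GABAergic nor glycinergic. Thinned, 71.4, 65.6 and 68.6% of their nuclei had neither set; at full depth the shares were 41.0, 34.3 and 36.5%, and 51.3, 59.7 and 55.8% of the nuclei had Slc6a9. Slc32a1 was still counted in them at 165, 113 and 108 CPM. Their median depths, 3751, 3508 and 3028 UMIs, were below the class median of 4352.5. The ganglion cell list scored best in sub-cluster 11 and the Müller glia list in sub-cluster 13. The nGnG list also scored best in sub-clusters 4, 12 and 25, which did not take the name. These had Slc6a9 at 854, 1868 and 1621 CPM, and 43.6, 11.9 and 25% of their thinned nuclei had neither set. The nGnG markers thus did not single out nuclei with neither set.

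**Figure D3:**
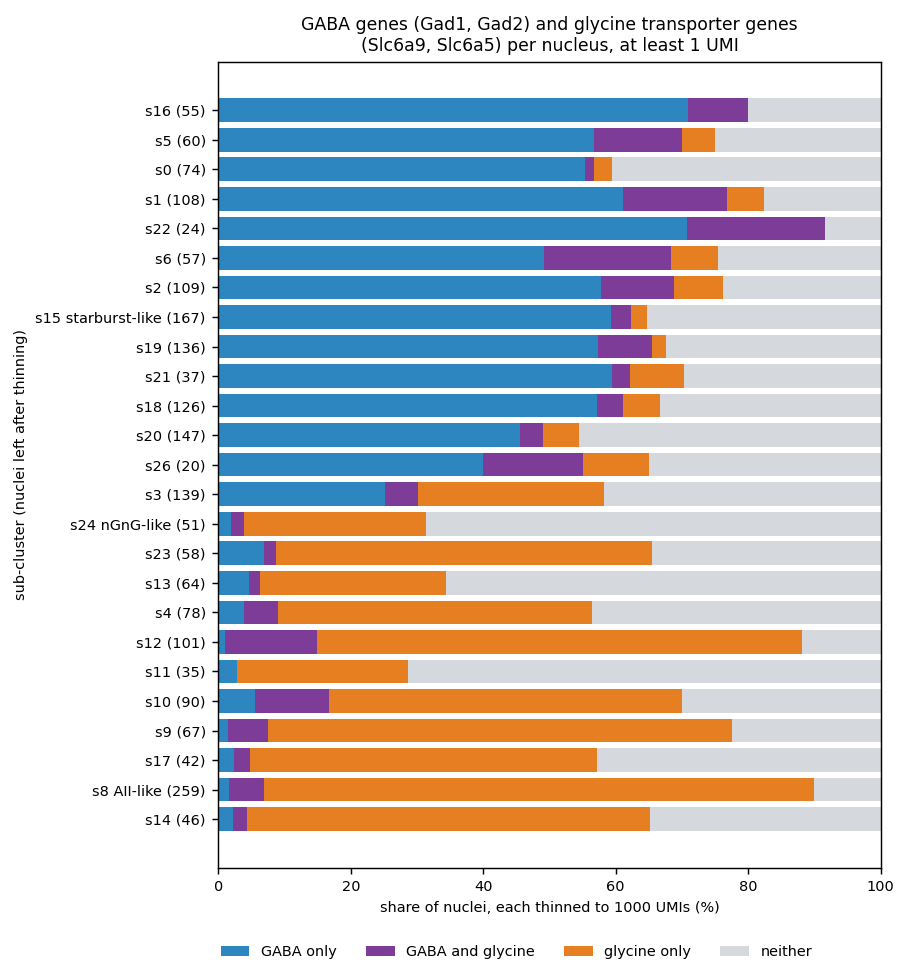
Share of nuclei (%) with GABA genes only, glycine transporter genes only, both or neither in each of the 25 sub-clusters, every nucleus thinned to 1000 UMIs; numbers in brackets are nuclei left after thinning. The AII-like sub-cluster has 83.0% glycine only, sub-cluster 16 has 70.9% GABA only, and the nGnG-like sub-cluster has 68.6% with neither.

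Chat and Slc5a7 were concentrated in 1 sub-cluster. The starburst-like sub-cluster (177 nuclei, named from Megf10, Megf11, Sox2, Isl1 and Fezf1; leading genes Megf11, Sox2ot, Chat, Adamts18 and Hmga2) had Chat at 803 CPM (751 to 857), Slc5a7 at 252 CPM (223 to 283), Slc18a3 at 169 CPM and Gad1 at 953 CPM, with Gad2 at 16.1 CPM. Sub-cluster 26, of 20 nuclei, had Chat at 508 CPM, Slc5a7 at 201 CPM and Slc18a3 at 147 CPM. Whether doublets set it apart was not tested. The nGnG-like sub-cluster followed with Chat at 101 CPM and Slc18a3 at 31.7 CPM, but 0 Slc5a7 UMIs. In the other sub-clusters Chat was at most 16.8 CPM.

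Slc17a8 was the one member that met the rule of class-high among sub-clusters, which 119 of 13638 genes (0.873%) met, with 61 of 12912 (0.472%) among genes not used for the sub-clusters. Sub-cluster 23 (59 nuclei; Slc17a8, Nxph1, Plpp4, Slc16a14, Bnc2) had 1766 CPM (1626 to 1915), and the next sub-cluster, 10, had 12.6 CPM (3.42 to 32.2). Of the 57 nuclei with at least 2 Slc17a8 UMIs, 54 lay in sub-cluster 23. Its other members were mainly those of glycine transport: Slc6a9 stood at 737 CPM, Slc6a5 at 175 CPM, Slc32a1 at 187 CPM, Gad1 at 202 CPM and Gad2 at 18.1 CPM. Of the same 57 nuclei, 89.5% (78.5 to 96.0%) had Slc6a9, 64.9% had Slc6a5 and 29.8% had Gad1. After thinning, 0 of 41 Slc17a8 nuclei had Gad1 (upper bound 8.60%) and 20 of 41 had Slc6a9. The 59 nuclei came from all 4 tissue pieces, with 17, 12, 21 and 9.

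Th was sparse, and its nuclei lay mostly among glycine transporter nuclei: 24 of 32 (75%) had Slc6a9. Of the 32 amacrine-like nuclei with Th, 27 had 1 UMI and 5 had 2, and 16 of the 32 lay in the AII-like sub-cluster (12 of the 27 and 4 of the 5). The AII-like sub-cluster had 16.2 CPM (9.89 to 25.01) of Th. The genes that would complete a dopamine cell were nearly absent from these nuclei, and also from the amacrine-like class as a whole. Among the 5 with 2 UMIs, 0 had Slc6a3, Slc18a2, Ddc or Gch1. Among the 27 with 1 UMI, 1 had the dopamine transporter Slc6a3 and 1 the vesicular monoamine transporter Slc18a2. Of all amacrine-like nuclei, 0.130% had Slc6a3, 1.69% Slc18a2, 0.173% Ddc and 0.130% Gch1. At such shares, 32 nuclei are too few to show whether Th nuclei lack these genes. The dopamine receptor gene Drd2 was found in 16 of the 27 and 3 of the 5, against 14.5% of all amacrine-like nuclei. Drd2 is also a leading gene of the AII-like sub-cluster, in which 16 of the 32 Th nuclei lay.

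The nucleus with the most Th lay outside the amacrine-like class. A nucleus of piece 1 in the ganglion cell-like class, with 12075 UMIs, held 9 Th UMIs with 8 of Slc18a2, 2 of Ddc, 2 of Gad1, 2 of Slc5a7 and 1 of Tfap2a, and 0 of Rbpms, Slc17a6, Slc6a3 or Gch1. It carried 9 of the 11 Th UMIs of that class. Outside the amacrine-like class, 1 other nucleus had at least 3 Th UMIs, a skeletal muscle-like one with 3 and 0 of the other genes named here. Both nuclei were looked at after their counts had been seen.

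Depth in the retina was measured inward from the RPE-like nuclei of each piece and scaled so that the median bipolar-like nucleus lay at 0 and the median ganglion cell-like nucleus at 1. Of amacrine-like nuclei, 1565 of 2312 lay in the retinal band where this depth could be taken. On this scale 12.3% of bipolar-like and 89.4% of ganglion cell-like nuclei lay beyond 0.5, so it did not separate the layers fully. The cause of this overlap was not tested. Depth from the local line of bipolar-like nuclei, an alternative chosen after seeing the data, placed 10.2 and 95.3% there.

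GABA-only nuclei lay deeper than glycine-only nuclei. The median relative depth was 0.495 for 510 GABA-only and 0.327 for 431 glycine-only nuclei, and pieces 1 to 4 gave 0.602, 0.457, 0.487 and 0.406 for the former and 0.511, 0.318, 0.243 and 0.310 for the latter. The order was the same in all 4 pieces and was not tested. By the local line the medians were 0.440 and 0.308. Beyond 0.5 lay 49.4% (44.99 to 53.8%) of GABA-only and 34.8% (30.3 to 39.5%) of glycine-only nuclei.

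Chat and Slc5a7 nuclei were the deepest of the groups by member. Of 153 Chat nuclei in the band, 63.4% (55.2 to 71.0%) lay beyond 0.5, with a median of 0.754, and 110 Slc5a7 nuclei had a median of 0.773. In the pieces the Chat share was 77.3, 57.7, 69.1 and 35.7% by the RPE line and 40.9, 50, 74.5 and 53.6% by the local line, so the pieces do not have a fixed order. By the local line 19.0% of Chat nuclei lay between 0.2 and 0.4, 17.0% between 0.4 and 0.6, 7.19% between 0.6 and 0.8 and 17.6% between 0.8 and 1. These shares are 29, 26, 11 and 27 nuclei pooled over the pieces, and the dip was not tested. Glycine-only nuclei stood at 35.5, 21.6, 6.26 and 3.94% in the same intervals. GABA-only nuclei, which include Chat nuclei, stood at 27.6, 16.5, 9.61 and 10.8%. Slc17a8 nuclei were the shallowest, with a median of 0.309 and 20.9% (10.0 to 36.0%) of 43 beyond 0.5, of which the pieces gave 43.75, 10.0, 7.14 and 0%. Among sub-clusters of at least 100 nuclei, sub-cluster 20 (151 nuclei, led by Tac2, Nos1, Sema6d, Frem3 and Elavl2) had the deepest median, 0.866. The starburst-like one followed at 0.803. Sub-cluster 20 had Gad1 at 669 CPM and Gad2 at 185 CPM, and the ganglion cell list scored best in it. The smaller sub-cluster 11, of 39 nuclei, lay deeper still at 0.935, and the ganglion cell list scored best there too.

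**Figure D4:**
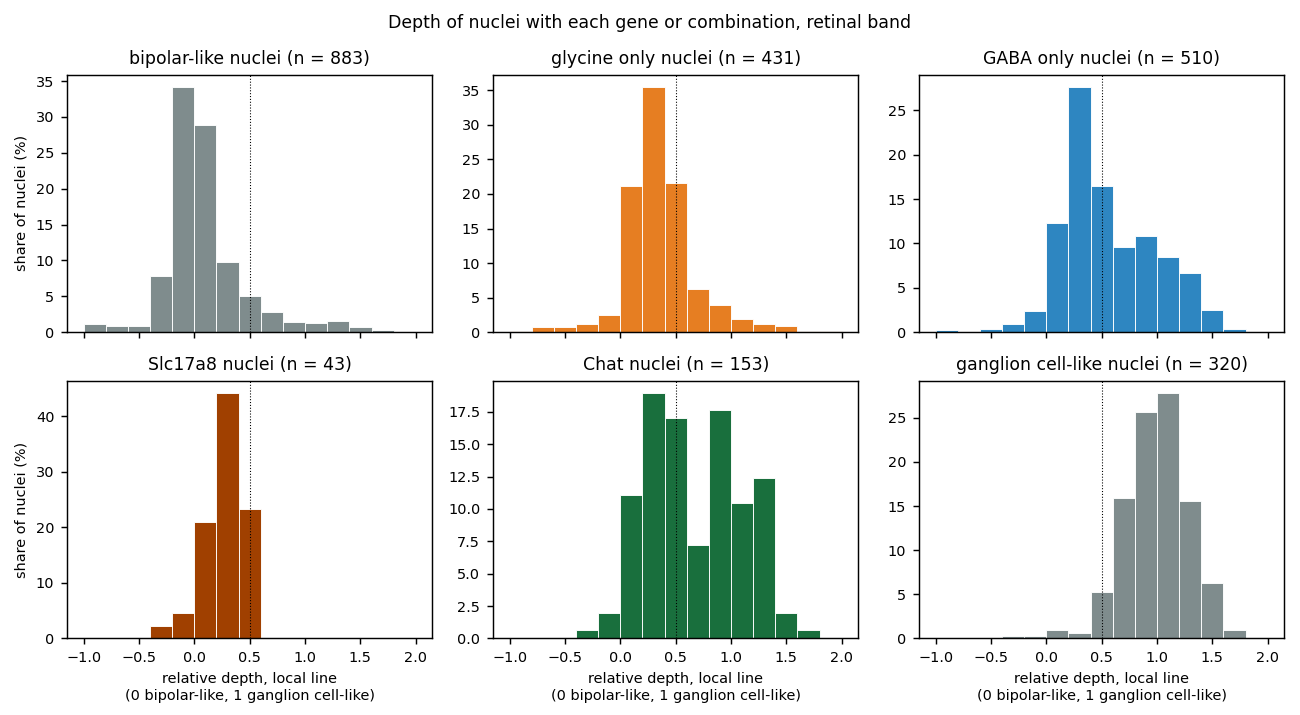
Share of nuclei (%) by relative depth from the local line of bipolar-like nuclei (0 bipolar-like median, 1 ganglion cell-like median), in the retinal band, for bipolar-like and ganglion cell-like nuclei and for 4 groups of amacrine-like nuclei; the dotted line is at 0.5. Chat nuclei show a low bar of 7.19% (11 nuclei) between 0.6 and 0.8, and glycine-only and Slc17a8 nuclei are concentrated below 0.5.

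**Figure D5:**
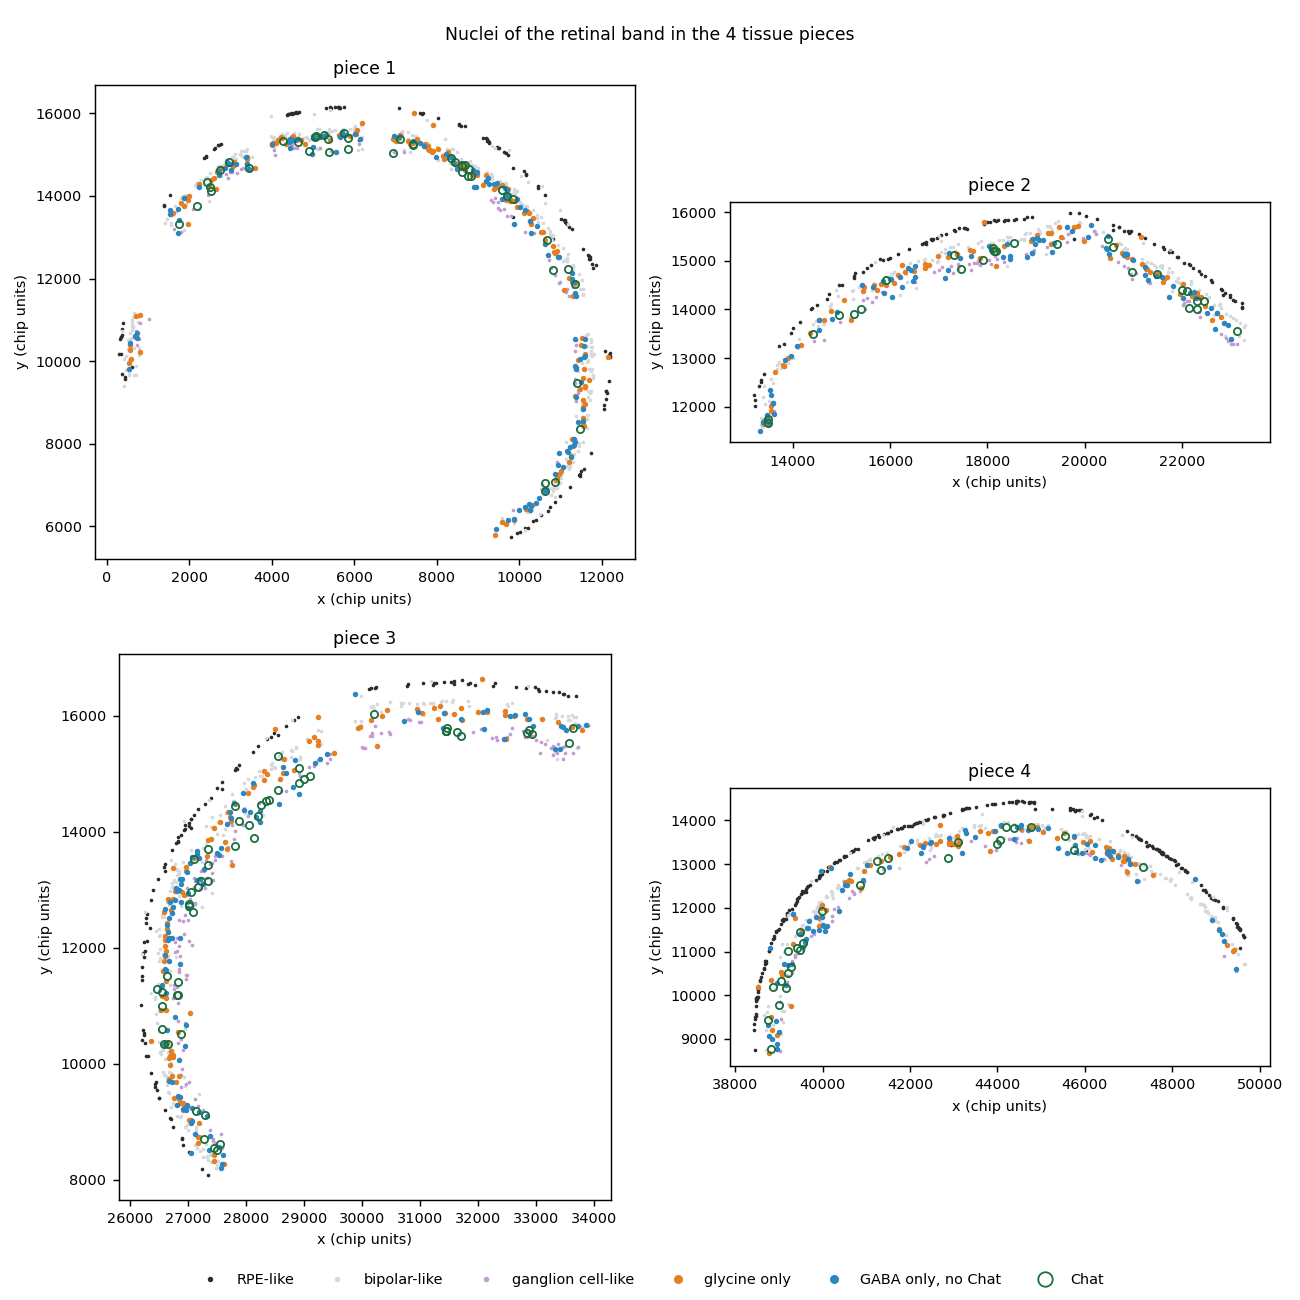
Positions (chip units) of RPE-like, bipolar-like and ganglion cell-like nuclei with glycine-only, GABA-only and Chat nuclei of the amacrine-like class in the retinal band of the 4 tissue pieces. The amacrine-like nuclei mostly follow the inner border of the bipolar-like band in each piece, and Chat nuclei also lie among the ganglion cell-like nuclei.

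The members were compared between the outer (at most 0.5) and inner side of the local line in the band. Over all 1050 outer and 515 inner amacrine-like nuclei, Chat was the one member past a factor of 2 between bounds, at 58.5 CPM (51.9 to 65.6) outside and 176 CPM (160.4 to 193) inside; 94 of 12867 genes (0.731%) passed in either direction. In the same nuclei Slc6a9 stood at 636 and 378 CPM, Slc6a5 at 135 and 87.8 CPM, Slc17a8 at 67.4 and 26.4 CPM, Gad1 at 620.4 and 638 CPM. Ganglion cell markers, summed over 10 genes, were at 290.0 CPM outside (2 of the 10 at 0) and 596 CPM inside (none at 0). Müller glia markers stood at 886 and 605 CPM and rod markers at 906 and 629.7 CPM, each summed over 8 genes with none at 0 on either side. The part of these markers in the differences was not tested. Without starburst-like nuclei Chat was 10.5 CPM outside and 17.7 CPM inside and no member passed, while 59 of 12627 genes (0.467%) did.

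Within starburst-like nuclei no cholinergic gene passed between the sides, and the glycine transporters depended on how depth was measured. By the local line, Chat was 709 CPM (622 to 804) in 51 outer and 911 CPM (825 to 1003) in 81 inner nuclei, with 758 and 961, 446 and 971, 825 and 855, and 769 and 1004 CPM in the 4 pieces. Slc18a3 was 142 and 191 CPM, Slc5a7 245 and 250.3 CPM, and Gad1 1057 and 906 CPM. Slc6a9 was 186 CPM (143 to 238) outside and 17.7 CPM (7.65 to 34.9) inside, and Slc6a5 65.0 and 2.22 CPM; both passed, as did 111 of 5996 genes (1.85%). By the RPE line, which gave 43 outer and 89 inner nuclei, neither passed: Slc6a9 was 106 CPM (69.0 to 155) and 82.7 CPM (60.3 to 111), and Slc6a5 32.5 and 27.6 CPM, while 14 genes (0.233%) passed. Of the 63 outer Slc6a9 UMIs by the local line, 44 came from 5 nuclei, and the other 46 nuclei had 71.3 CPM (43.0 to 111). Müller glia markers, summed over 8 genes, stood at 936 CPM outside and 228 CPM inside by the local line, none of the 8 at 0 on either side, and their part was not tested. Megf10, a receptor of starburst cells, stood at 540 CPM in Müller glia-like and 12.7 CPM in all amacrine-like nuclei. Among starburst-like nuclei Megf10 was 11.8 CPM outside and 82.0 CPM inside by the local line. By the RPE line it was 16.3 and 68.0 CPM, and it did not pass by either line. The other genes of the starburst list did not share 1 direction by the local line. Outside and inside, Sox2 was 67.9 and 35.4 CPM, Megf11 3144 and 3536 CPM, Isl1 289 and 337 CPM, and Fezf1 0 and 15.5 CPM.

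The nuclei lay in 4 separate curved pieces, although the labels speak of 1 section, and no label gives a piece a group. The amacrine-like class had 671, 378, 781 and 482 nuclei in pieces 1 to 4. Of the 8 members with at least 100 UMIs, 0 differed between pieces by a factor of 1.5 between bounds, a rule that 62 of 9851 genes (0.629%) met. Gad1 stood at 626, 619, 604 and 593 CPM, Slc32a1 at 198, 209.7, 197 and 199.99 CPM, and Slc6a9 at 633, 564, 525 and 526 CPM. Chat stood at 90.8, 79.9, 106 and 86.3 CPM. Slc17a8 had the widest range of the 8, at 58.4, 52.2, 68.0 and 33.1 CPM (26.0 to 41.6 in piece 4), and the pieces contributed 17, 12, 21 and 9 nuclei to its sub-cluster. GABA-only shares after thinning were 32.3, 32.1, 32.6 and 31.25%.

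Other genes of the same pathways were read in 8 lists. Of 65 genes, 59 had at least 20 UMIs, 15 were class-high and 2 of those in amacrine-like nuclei; over all genes 11.2% were class-high in some class. Of 7 GABA handling genes, 2 were class-high: the GABA transporters Slc6a13 in RPE-like nuclei at 437 CPM and Slc6a11 in Müller glia-like nuclei at 1107 CPM. Of 5 measured glycine handling genes 0 were class-high; Gldc, which breaks glycine down, stood at 476 CPM in RPE-like, 425 CPM in Müller glia-like and 6.26 CPM in amacrine-like nuclei. Of 5 acetylcholine handling genes 0 were class-high. Slc18a3 was highest in amacrine-like nuclei, but its 20.8 CPM was too low for the rule. In the surface epithelium-like class even 0 UMIs give an upper bound of 13.7 CPM. Of 7 measured catecholamine genes 1 was class-high, Maob, in adipocyte-like nuclei at 118 CPM. Of 4 glutamate transporter genes 2 were class-high: Slc17a6 in ganglion cell-like nuclei at 332 CPM and Slc1a1 in RPE-like nuclei at 1018 CPM.

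The receptor genes were class-high mainly outside the amacrine-like class. Of 11 genes for GABA and glycine receptors, 6 were class-high. Those of highest ratio to the next class were the GABA-C receptor subunits Gabrr2 and Gabrr1 in bipolar-like nuclei, at 597 and 278 CPM, the glycine receptor subunit Glra3 in amacrine-like nuclei at 133 CPM (126 to 140.0), and Glra1 in bipolar-like nuclei at 367 CPM. Glra2 was the other gene class-high in amacrine-like nuclei, at 86.5 CPM against 26.2 CPM in ganglion cell-like nuclei. Of 13 acetylcholine and dopamine receptor genes, 3 were class-high: Chrna6 and Chrnb3 in ganglion cell-like nuclei at 301 and 339 CPM, and Drd2 in bipolar-like nuclei at 196.4 CPM, with amacrine-like nuclei at 86.5 CPM. Of 7 measured peptide and nitric oxide genes 1 was class-high, Cck, in melanocyte-like nuclei at 113 CPM. Another 3 of the 7 were highest in amacrine-like nuclei, at levels too low to meet the rule given the bounds of the small classes. The count of class-high genes therefore does not show whether these 3 are confined to the class.

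For each member, the genes with the most similar pattern were taken by Pearson r of log2(CPM + 1) over the 25 sub-clusters, among 7552 genes. For Gad1 these were Gad1os (0.90), a transcript that overlaps Gad1, C1ql2 (0.89) and Col23a1 (0.86). Gad2 was followed by Alcam (0.79), Cers5 (0.79) and Vezt (0.78), and Slc32a1 by Atp6v0c (0.83), a subunit of the vesicular proton pump, Hsp90ab1 (0.81) and Atcay (0.81). Slc6a9 was followed by Dab1 (0.82), Tcf4 (0.79) and Sema4g (0.79), and Slc6a5 by Tfap2b (0.77), Zmat3 (0.77) and Evc (0.73). Chat was followed by genes that included Hecw1 (0.79) and Kcnk2 (0.77), and Slc5a7 by Eml6 (0.82), Pappa2 (0.78) and Gk (0.76). For Th (Cdan1 0.69, Galnt16 0.66, Atg4a 0.66) and Slc17a8 (Itm2b 0.80, Mpp3 0.68, Bnc2 0.67) most sub-clusters were at or near 0 UMIs. With 7552 genes and 25 points that share 1 library, high values arise among many genes, and these describe likeness only.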

How the data were processed

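Per the labels, nuclei of 1 section were profiled by SeekSpace; the authors deposited UMI counts per gene and nucleus and a position per barcode, in chip units. Tools listed in the submitters' processing notes are fastp, STAR and Seurat 4.1.1, with build mm10. How each was used, and whether strand or introns were counted, was not given in the sources used here. Nuclei with at least 200 genes and under 10% mitochondrial UMIs were kept. Counts were scaled to 10000 per nucleus, and 2000 variable genes without the members or pathway lists gave 30 components, 15 neighbours and Leiden clusters at resolution 1 (scanpy 1.11.5, anndata 0.12.19, igraph 0.11.9, scikit-learn 1.9.0). Amacrine-like nuclei were clustered again with 1000 variable genes and 20 components. A cluster took a name where at least 3 markers led and the second list scored at most 0.6 of the best. Scrublet marked 0 nuclei (up to 0.0178%), so it did not work here; no doublets were removed, and their number was not measured.

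Members, lists and thresholds were chosen with earlier results of these data known, and the naming score and depth geometry were settled after seeing the data. The text names all 9 members, in each pathway list the class-high genes of highest ratio to the next class, the 5 leading genes of sub-clusters and the 3 most similar genes per member (a few results that this rule or the text would name are not reported here); other genes named were chosen after their values were seen. Classes needed 50 nuclei and genes 20 UMIs. Nuclei were thinned to 500 UMIs between classes and 1000 within amacrine-like nuclei. Intervals are at 95% (python 3.11.15, numpy 2.4.6, pandas 2.3.3, scipy 1.17.1; figures with matplotlib 3.10.9). Steps across all genes were tested on simulated data.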

Additional observations from a re-analysis of the deposited data

How the results depend on the processing

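Over 21 results, 175 alternatives were run, some chosen after seeing the data. The values below moved past the 95% interval of the reported share, or, for the count of class-high members, by over 1.5 times. Among levels in single classes, 14 alternatives also moved, and these are not all listed. For example, thinning to 500 UMIs gave amacrine-like levels of 536 CPM for Gad1 (610.5 as reported) and 95.6 CPM for Slc6a5 (120.4). It gave 74.5 CPM for Chat (93.6), 42.1 CPM for Slc17a8 (55.6) and, upward, 131.5 CPM for Gad2 (120.7). Depth medians have no such interval: the GABA-only median ran from 0.406 to 0.602 and the glycine-only median from 0.243 to 0.511 over the pieces taken alone. Thinning to 500 UMIs left 1 member class-high, against 4 as reported and 3 to 6 in the other settings. At that depth the bounds of small classes are wide, so Gad2, Slc6a5 and Chat could not meet the rule. The same thinning placed Slc32a1 higher in horizontal-like (222 CPM) than in amacrine-like nuclei (196.4 CPM), the reverse of the reported order. Thinning to 1000 UMIs gave 60.4% of Chat nuclei with a GABA gene (93.8%), 6.80% of amacrine-like nuclei with both sets (29.2%) and 15.04% of glycine-only nuclei with Slc32a1 (46.3%). A minimum of 2 UMIs gave 36.7% GABA only (32.7%), 13.3% with both sets and 18.5% of glycine-only nuclei with Slc32a1. The retinal band alone gave 31.1% with both sets. The share of Chat nuclei beyond depth 0.5 was 77.3% in piece 1 alone and 35.7% in piece 4 alone (63.4% in all). Thinning and the UMI minimum lower detection by construction; otherwise the cause was not tested. No paired analysis was possible because T1 carries no group or replicate label. With 1 library, no spread between eyes or mice can be given.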
